A study of Mus musculus with 8 samples.

Results

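The B lineage genes are a set of 30 genes, chosen by symbol for their known part in the making of B cells, among 18860 genes measured in 8 mouse leukaemias. All 30 had a row. They were divided by role into 9 early genes, 8 transcription factors, 7 genes of the B cell receptor and its signalling, and 6 genes of mature B cells. Total RNA had been taken from leukaemia cells of the bone marrow of moribund C57BL/6 mice, and the labels call the cells acute myeloid. The 11B3-deleted group (genotype 11B3fl/p53fl;shNf1;shMll3;Vav1-Cre, n = 4 libraries) carries 1 floxed copy of 11B3, the part of chromosome 11 that holds Trp53, and 1 floxed Trp53 allele. The p53-loss-only group (p53fl/fl;shNf1;shMll3;Vav1-Cre, n = 4 libraries) carries 2 floxed Trp53 alleles. All 8 leukaemias share hairpins against Nf1, a brake on Ras, and Mll3, a histone methyltransferase, and a Cre recombinase driven by Vav1, which is active throughout the blood lineages and so also in lymphoid cells. The labels speak of lines without naming a mouse for each, so every p-value reflects variation among these libraries alone, which may be technical. The mice were moribund when sampled, and no age is stated in the labels.

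B cells arise in the bone marrow from lymphoid progenitors. The transcription factors Ebf1 and Pax5 commit a cell to the lineage, the Rag1 and Rag2 enzymes cut and join the immunoglobulin segments, and the terminal transferase Dntt adds bases at the joints while the heavy chain is assembled. A finished heavy chain then pairs with the surrogate light chain, made of the products of Vpreb1 or Vpreb2 and Igll1, to form the pre-B receptor, which signals through Cd79a and Cd79b. Surrogate light chain and recombination genes are switched off again as the cell matures and gains surface proteins such as CD20, the product of Ms4a1.

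The upstream sequences of 5 members are shown because the genes behaved differently although their windows share features. Vpreb1 and Vpreb2 are close copies of each other, Igll1 and Cd79a were among the most unequal genes between libraries, and Cd22 is a mature gene that was not. Each run is the 250 bases before the annotated start, 5′ to 3′ on the gene's strand, from RefSeq on GRCm38.p6. Capitals mark matches to any of 3 motifs searched on both strands: the EBF1 motif, TCCC and GGGA with any 2 bases between, the octamer ATGCAAAT, bound by POU2F factors, and the E-box CAGGTG, bound by E2A.
Igll1, chr16:16863986-16864235, minus strand: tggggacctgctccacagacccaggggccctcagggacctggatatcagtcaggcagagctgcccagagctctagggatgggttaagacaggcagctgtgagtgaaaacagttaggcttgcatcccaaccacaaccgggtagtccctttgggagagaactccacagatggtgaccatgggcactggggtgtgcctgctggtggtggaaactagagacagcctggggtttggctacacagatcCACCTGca
Vpreb1, chr16:16869256-16869505, minus strand: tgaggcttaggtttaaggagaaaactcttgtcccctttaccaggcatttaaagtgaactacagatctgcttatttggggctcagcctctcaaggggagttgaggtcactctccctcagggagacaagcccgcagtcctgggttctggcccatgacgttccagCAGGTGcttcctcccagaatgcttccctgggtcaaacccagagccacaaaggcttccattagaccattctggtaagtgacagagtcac
Vpreb2, chr16:17980315-17980564, plus strand: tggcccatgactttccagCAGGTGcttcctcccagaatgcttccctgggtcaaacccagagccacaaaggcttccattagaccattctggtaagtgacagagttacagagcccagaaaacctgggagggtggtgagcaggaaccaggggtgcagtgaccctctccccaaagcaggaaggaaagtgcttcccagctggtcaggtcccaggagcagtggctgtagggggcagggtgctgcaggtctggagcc
Cd79a, chr7:24897247-24897496, plus strand: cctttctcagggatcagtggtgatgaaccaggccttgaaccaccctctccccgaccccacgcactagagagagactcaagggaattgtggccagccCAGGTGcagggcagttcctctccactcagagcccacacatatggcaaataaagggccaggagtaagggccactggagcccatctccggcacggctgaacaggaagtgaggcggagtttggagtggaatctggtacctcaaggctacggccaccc
Cd22, chr7:30879029-30879278, minus strand: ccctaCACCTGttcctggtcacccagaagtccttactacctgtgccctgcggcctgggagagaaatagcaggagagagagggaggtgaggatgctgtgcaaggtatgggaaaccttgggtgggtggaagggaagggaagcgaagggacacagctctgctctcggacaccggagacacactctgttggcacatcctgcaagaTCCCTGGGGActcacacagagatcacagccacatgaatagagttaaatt
The Vpreb1 and Vpreb2 windows hold the same stretch at different distances from the start. Over 106 aligned bases 104 were identical, and the stretch lay 144 bases closer to the annotated start of Vpreb1. Windows that reach from 250 bases before to 50 after the start were found for 25 of the 30 members. The E-box was present in 12 of these 25 genes and in 20.2% of all 32851 promoter windows. The EBF1 motif was present in Cd22 alone of the 25 (0.904% of all windows), and the octamer in Blnk and Vpreb3 (1.74% of all windows). The motifs do not overlap each other in the windows shown. A match is a description of the letters, not of binding, and some genes have several windows.

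Values are the deposited ones, read counts scaled for library size with 1 added, so a gene without reads stands at 1. The libraries held 30502718 to 35719495 reads assigned to genes, and 3 reads correspond to a value between 3.66 and 4.29. Myeloid markers were abundant in all 8 libraries, as the label says: Mpo, the granule enzyme myeloperoxidase, was at 75330 or more and Elane, neutrophil elastase, at 17360 or more in every library. Of the T cell markers, Cd3e, a chain of the T cell receptor complex, was between 14.2 and 85.3, and Cd28, a costimulatory receptor, between 130.8 and 941.9. In bulk RNA, more cells of a type and more RNA of its genes per cell cannot be told apart.

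11B3-deleted replicate 3 stood apart from the other 7 leukaemias in the early B genes. Of the 30 members, 22 had their highest value in that library, and 14 were there at least 8 times as high as in the highest other library. Of the 28 members that passed the filter on low values, 21 were highest there, against 9.44% of all 14679 genes tested, and 13 were also at least 8 times above the highest other library with a value of at least 100, against 0.225% of all genes tested. The excess was graded by role: the median ratio to the highest other library was 24.2 for the early genes, 6.07 for the transcription factors, 3.07 for the receptor and signalling genes and 0.901 for the mature genes. The library was singled out because it was high in such genes, so these counts describe it and are not a test.

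**Figure D1:**
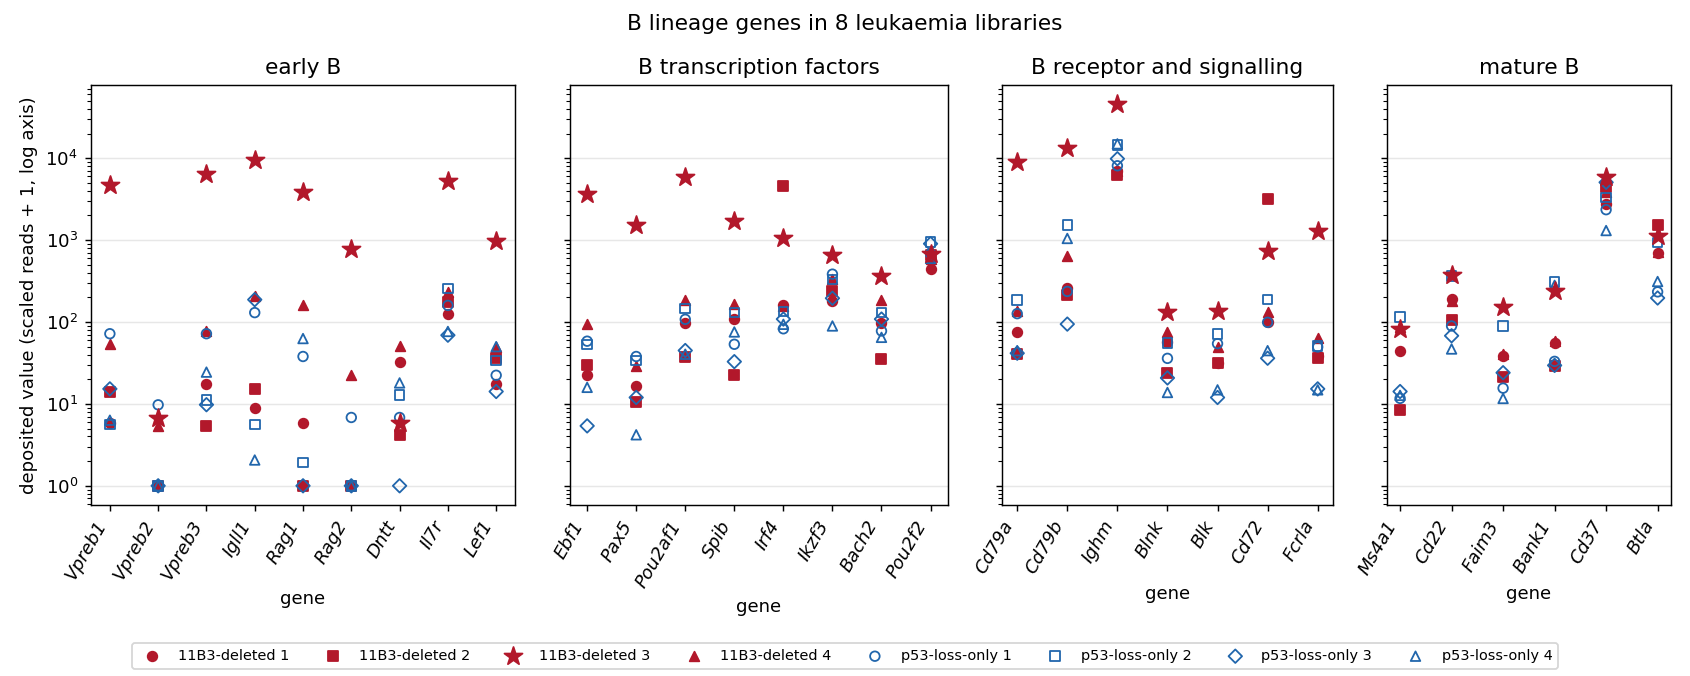
Deposited value (scaled reads plus 1, log axis) of each of the 30 B lineage genes in each library, in 4 panels by role; filled red symbols are 11B3-deleted and open blue symbols p53-loss-only libraries, and the star is 11B3-deleted replicate 3. The star lies far above all other symbols for Vpreb1, Igll1, Rag1, Ebf1 and Cd79a. It lies among them for Dntt, and among or close above them for the mature genes.

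Among the early genes, Vpreb1 and Igll1 encode parts of the surrogate light chain. Vpreb1 read 5.88, 13.9, 4727 and 53.4 across 11B3-deleted leukaemias 1 to 4, against 71.9, 5.59, 15.3 and 6.32 across p53-loss-only leukaemias 1 to 4. Igll1, the λ5 chain, was at 8.81, 14.99, 9387 and 205.1 against 130.1, 5.59, 187.4 and 2.06. Replicate 3 was thus 65.8 times the highest other library for Vpreb1 and 45.8 times for Igll1. The remaining 7 libraries also differed, from 2.06 in p53-loss-only replicate 4 to 205.1 in 11B3-deleted replicate 4 for Igll1. Vpreb3, a related protein of the B cell precursor that helps assemble receptors, was at 6361 in replicate 3 and between 5.30 and 77.3 elsewhere, the largest ratio of all members (82.3).

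Vpreb2 did not share this pattern. It was at 6.82 in replicate 3, or 6 reads, and at 9.74, or 9 reads, in p53-loss-only replicate 1, its highest library, and 5 of the 8 libraries held no read. The annotated transcripts of Vpreb1 and Vpreb2 were identical in 739 of 759 aligned bases (97.4%), with an unbroken identical run of 196 bases. The handling of reads that match both genes is unknown here, so the split between Vpreb1 and Vpreb2 is uncertain.

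The recombination genes parted in replicate 3. Rag1 read 5.88, 1, 3890 and 160.8 across 11B3-deleted leukaemias 1 to 4, against 37.9, 1.92, 1 and 62.8 across p53-loss-only leukaemias 1 to 4. Rag2 was at 770.6 in replicate 3, at 22.3 in 11B3-deleted replicate 4 and at 6.83 in p53-loss-only replicate 1, and had no read in the other 5. Dntt, by contrast, was at 32.2, 4.23, 5.85 and 50.7 against 6.83, 12.9, 1 and 18.0. In Dntt, replicate 3 ranked sixth of the 8 libraries, at 0.115 times the highest, which was 11B3-deleted replicate 4. Il7r, the receptor chain for interleukin-7, a growth factor of B cell precursors, was at 5271 in replicate 3 and between 69.0 and 257.9 elsewhere. Lef1, a Wnt pathway transcription factor also present in early B cells, was at 963.5 there and between 14.2 and 49.99 elsewhere. Rag1, Dntt, Il7r and Lef1 also serve T cell precursors. Replicate 3 was the lowest of the 8 libraries in 13 of 20 tested T lineage genes, against 13.8% of all tested genes. Among them were Cd3d at 17.5 and Bcl11b, a T cell commitment factor, at 14.6. It was not the lowest in others, such as Cd3e at 14.57, Cd28 at 135.7 and Thy1 at 103.7. The part of T lineage cells in the values of Rag1, Dntt, Il7r and Lef1 was not tested.

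**Figure D2:**
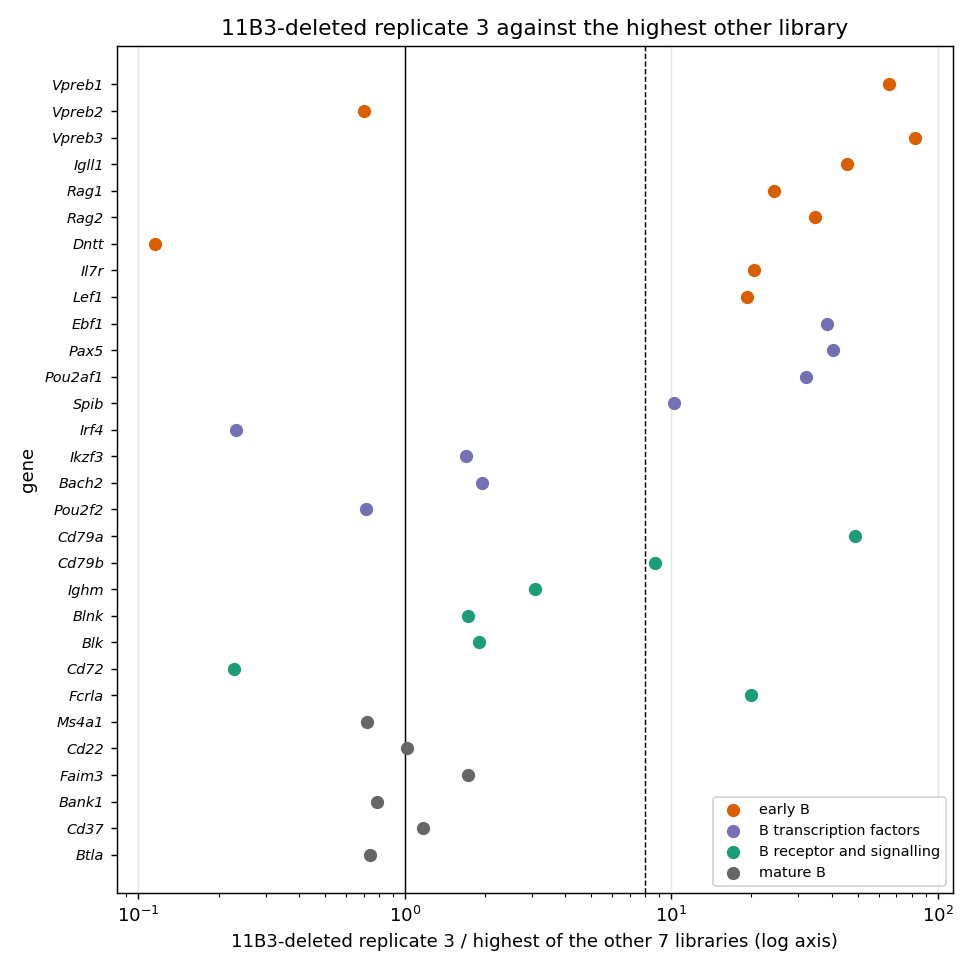
Deposited value in 11B3-deleted replicate 3 divided by the highest value among the other 7 libraries (log axis), for each of the 30 genes coloured by role; the solid line marks equality and the dashed line a ratio of 8. Of the early genes 7 lie between 19.3 and 82.3, with Vpreb2 and Dntt below 1, and the 6 mature genes lie between 0.718 and 1.73.

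The transcription factors fell into those that followed the early genes and those that did not. Ebf1 read 22.5, 30.1, 3607 and 94.2 across 11B3-deleted leukaemias 1 to 4, against 58.3, 53.3, 5.39 and 15.9 across p53-loss-only leukaemias 1 to 4. Pax5 was at 16.6, 10.7, 1530 and 29.4 against 37.9, 34.0, 11.97 and 4.19. Pou2af1, a coactivator of octamer-binding factors, and Spib, an ETS factor shared with plasmacytoid dendritic cells, followed at 32.1 and 10.2 times the highest other library. Ikzf3 (Aiolos, ratio 1.69) and Bach2, which holds back plasma cell differentiation (ratio 1.94), were highest in replicate 3 by a small margin. Pou2f2, an octamer-binding factor, ranged from 437.4 to 952.4 over the 8 libraries, with replicate 3 below p53-loss-only replicates 2 and 3.

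Irf4, a factor of late B cells that also acts in pre-B cells, T cells, dendritic cells and macrophages, went with another library. It read 159.2, 4612, 1072 and 157.2 across 11B3-deleted leukaemias 1 to 4, against 82.6, 134.0, 108.5 and 93.6 across p53-loss-only leukaemias 1 to 4. 11B3-deleted replicate 2 was thus highest by 4.30 times, and it was also highest in Cd72, an inhibitory coreceptor, at 3178 against 726.0 in replicate 3 and 187.2 or less in the other 6. That library was highest in 3 of the 30 members (Irf4, Cd72 and Btla) and in 18.3% of all tested genes. It was lowest in other members, among them Cd79a at 40.8 and Ms4a1 at 8.53.

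The receptor genes were high in replicate 3 at several scales. Cd79a, a signalling chain of the receptor, read 76.2, 40.8, 9065 and 135.9 across 11B3-deleted leukaemias 1 to 4, against 126.3, 184.5, 41.6 and 44.7 across p53-loss-only leukaemias 1 to 4. Its partner Cd79b was at 258.7, 216.2, 13270 and 641.8 against 236.0, 1531, 94.2 and 1046. The p53-loss-only replicates 2 and 4 thus held more Cd79b than the other 5 libraries outside replicate 3, whereas their Cd79a was 184.5 and 44.7. Fcrla, an intracellular Fc receptor-like protein of B cells, was at 1281 in replicate 3 and at most 64.0 elsewhere. The adaptor Blnk (131.9) and the kinase Blk (135.7) exceeded the highest other library by 1.72 and 1.89 times. Ighm, the μ heavy chain, was abundant everywhere, at 6309 to 14950 in 7 libraries and at 45810 in replicate 3.

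Mature B genes showed little excess in replicate 3 over the highest other library. Against the median of the other 7 libraries replicate 3 was higher in all 6, as in Faim3 (154.1 against 24.0) and Cd37 (5947 against 3299). Ms4a1 read 44.0, 8.53, 82.4 and 88.0 across 11B3-deleted leukaemias 1 to 4, against 11.7, 115, 14.2 and 12.7 across p53-loss-only leukaemias 1 to 4, highest in p53-loss-only replicate 2. Cd22, an inhibitory lectin of B cells, was at 188.5, 106.5, 370.3 and 182.9 against 89.4, 364.3, 67.9 and 46.8, so that replicate 3 exceeded p53-loss-only replicate 2 by 1.02 times. Bank1, a signalling scaffold, was highest in p53-loss-only replicates 2 and 4, at 308.3 and 280.0, with replicate 3 at 241.4. Faim3 (current symbol Fcmr), the receptor for immunoglobulin M, was at 154.1 in replicate 3 and at 89.1 or less elsewhere. Cd37, a tetraspanin that myeloid cells also carry, ranged from 1307 to 5947. Btla, an inhibitory receptor shared with T cells and dendritic cells, was highest in 11B3-deleted replicate 2 at 1509, with replicate 3 at 1121.

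Levels were also compared between genes per length, as scaled reads per kilobase of exon, and the roles overlapped on this scale. In scaled reads per kilobase, replicate 3 held most of Ighm, at 24300. Below it came 9280 of Cd79b, 7400 of Vpreb3, 6220 of Cd79a, 4340 of Igll1, 3940 of Vpreb1 and 2330 of Pou2af1. Il7r was at 1130 and Rag1 at 588. On the same scale it held 13.2 of Ms4a1, 32.1 of Bank1, 73.2 of Cd22 and 88.2 of Faim3, whereas the mature genes Btla (330) and Cd37 (1690) were higher. The early genes Dntt (2.11) and Vpreb2 (7.66) lay below Ms4a1, and the receptor pathway genes Blnk (21.8) and Blk (49.9) lay among the mature genes.

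The balance of early to mature genes differed between the other leukaemias as well. Each gene was set against its median over the 8 libraries on the log2 scale, and the median over the genes of a role was taken in each library. Early genes gave -0.42, -0.07, 7.73 and 2.22 across 11B3-deleted leukaemias 1 to 4, against 1.56, -0.05, -1.09 and 0 across p53-loss-only leukaemias 1 to 4. Mature genes, in the same order, gave 0.16, -0.44, 1.57 and 0.25 against -0.87, 1.47, -0.89 and -1.27. After replicate 3, 11B3-deleted replicate 4 and p53-loss-only replicate 1 were highest in the early genes, whereas p53-loss-only replicate 2 was highest in the mature genes and near 0 in the early ones. Early minus mature came to 6.17 in replicate 3, 2.43 in p53-loss-only replicate 1, 1.96 in 11B3-deleted replicate 4 and -1.52 in p53-loss-only replicate 2. Of the 22 members highest in replicate 3, 10 were second highest in 11B3-deleted replicate 4 and 6 in p53-loss-only replicate 2. The second place of p53-loss-only replicate 2 was found in Il7r, Cd79a, Cd79b, Blk, Cd22 and Faim3.

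**Figure D3:**
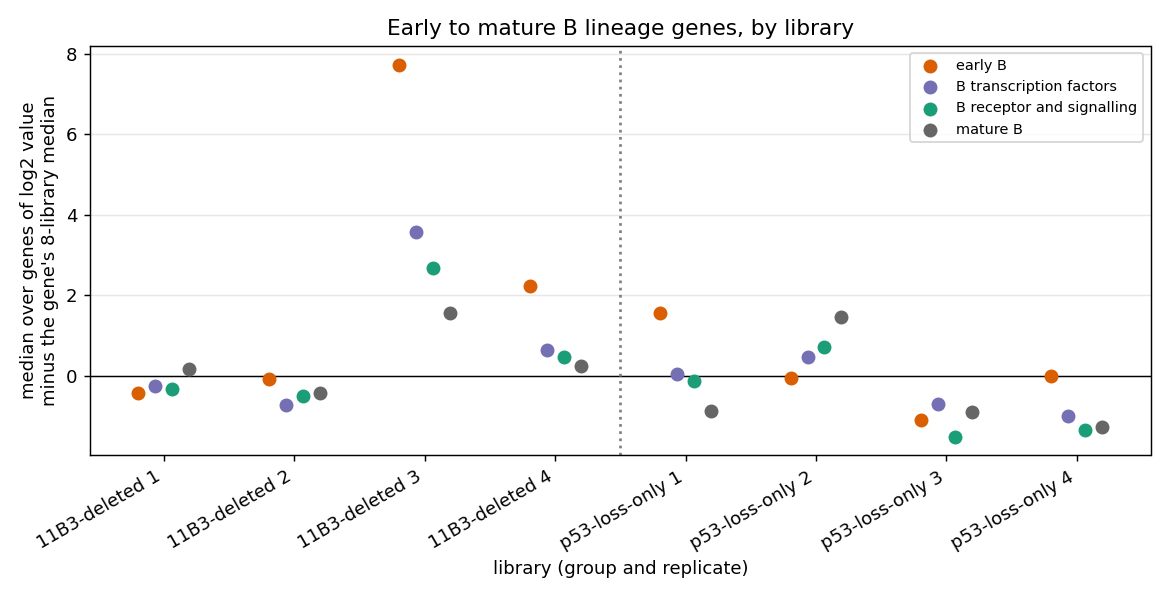
Median over the genes of each role of the log2 value minus the gene's own median over the 8 libraries (y axis), for each library (x axis, 11B3-deleted left of the dotted line). In 11B3-deleted replicate 3 the points descend from 7.73 for early genes to 1.57 for mature genes, and in p53-loss-only replicate 2 the order is the opposite, from -0.05 to 1.47.

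Other B lineage genes came from a list of 46 that holds no member. Of the 44 tested, 17 were highest in replicate 3, against 9.44% of all tested genes, and 3 stood at least 8 times above the highest other library. Their summed level in replicate 3, 146700, lay within the 104500 to 156700 of the other 7 libraries. The most abundant genes weigh most in this sum, and the share of each gene in it was not taken. Akap12, a kinase anchor protein, was at 3446 in replicate 3 and at most 203.9 elsewhere, and Chst3, a sulfotransferase, at 1821 and at most 171.4. Gfra2, a receptor for neurturin, was at 1783 and at most 13.4 elsewhere. It did not pass the filter on low values, so it is not among the 3. Cplx2 was at 375.1, with 123.5 in 11B3-deleted replicate 4. Cd55, a complement regulator, went with another library, at 3162 in 11B3-deleted replicate 1 and 701.8 in replicate 3.

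Immunoglobulin genes added a feature of their own in replicate 3. Igkc, the κ light chain constant region, was at 3054 there and between 143.5 and 956.2 elsewhere. Each B cell joins its own variable segments. Over 82 heavy chain variable genes, replicate 3 held 4714 reads, and 86.4% of them fell in Ighv5-6 and Ighv2-4 (exact binomial 95% interval 85.4% to 87.4%). In the other 7 libraries, with 115 to 782 reads, the 2 most read heavy chain variable genes held 11.3% to 20.1%. Ighv5-6 had 2868 reads in replicate 3 and 14 in the other 7 libraries together, and Ighv2-4 had 1206 against 1. The 2 genes lie close together on chromosome 12 in the GRCm38 annotation, 27335 bases apart, with 1 variable pseudogene, Ighv5-7, between them. Of the 82 κ variable genes, Igkv10-96 and Igkv6-32 held 42.3% of 2838 reads in replicate 3 (exact binomial 95% interval 40.5% to 44.1%), against 11.8% to 22.6% for the 2 most read genes of each other library. These intervals cover counting error only. The look at variable genes was chosen after their values were seen, and variable genes are alike enough that reads may be shared between copies.

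**Figure D4:**
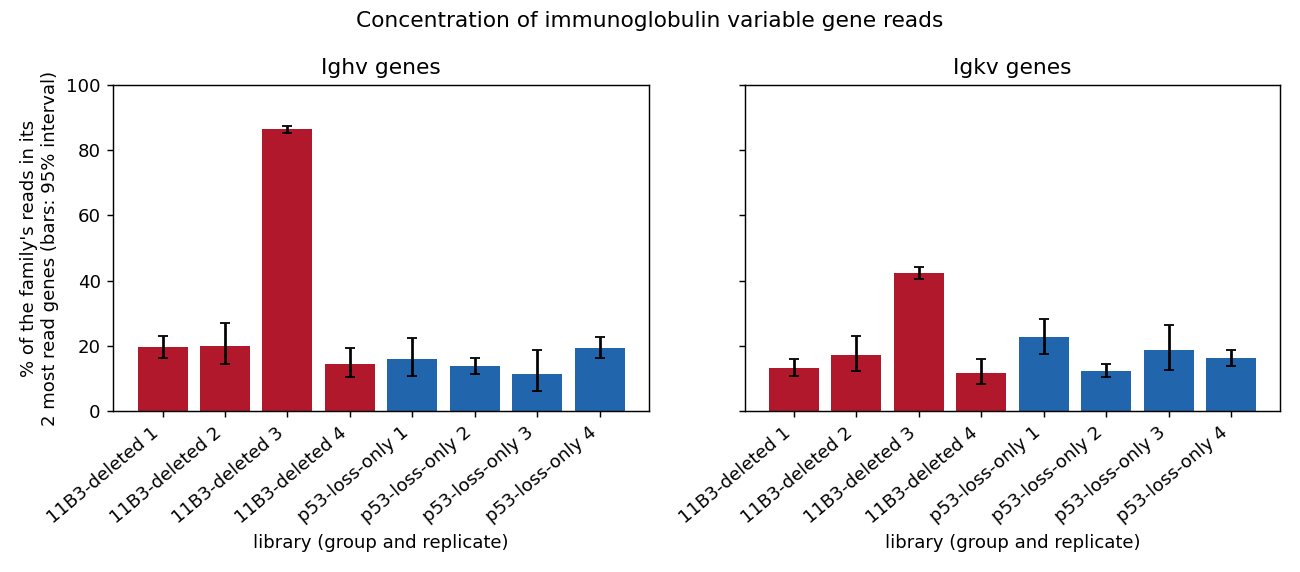
Percent of all reads of the heavy chain (Ighv, left) and κ (Igkv, right) variable genes that fall in the 2 most read genes of each library; bars are red for 11B3-deleted and blue for p53-loss-only libraries, with exact 95% binomial intervals. Replicate 3 of the 11B3-deleted group reaches 86.4% and 42.3%, and all other bars lie at or below 22.6%.

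Genes outside the members that stood apart in the same library were counted by the same measure. In replicate 3, 33 tested genes had a value of at least 100 and at least 8 times the highest other library, of which 13 were members. Elsewhere 3 to 18 genes a library met this, none of them a member. The filter, a value of at least 10 in 4 or more libraries, leaves out genes present in few libraries. The counts for every library therefore miss such genes. In replicate 3 these include the member Rag2 (34.6 times the highest other library) and Gfra2 (133 times). Ighv5-6 at 2781 and Ighv2-4 at 1170 are also left out. Of the 20 others counted in replicate 3, 3 were on the lists of other B lineage genes (among them Akap12 and Chst3) and 2 were κ variable genes. Alpl, the tissue-nonspecific alkaline phosphatase, led them at 3770, 74.6 times the highest other library, followed by Sorcs2, a sorting receptor, at 1238 (42.2 times) and Ppl, periplakin, at 658.2 (24.8 times). Rsph9, Otogl, Colq, Atp1b1, a subunit of the sodium pump, Jakmip1 and Nsg2 also met it, with ratios from 10.4 to 18.6. Prg2, the major basic protein of eosinophil granules, was at 4828 (11.8 times), with 409.3 in 11B3-deleted replicate 4. A further gene, deposited as 2010001M09Rik (current symbol Mzb1, a protein of the antibody-secreting machinery), was at 2666 (58.3 times). The plasma cell list holds it as Mzb1, which matched no deposited symbol, so the counts and sums of that list leave it out. It was named here after its value was seen.

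Replicate 3 nevertheless carried the myeloid genes of the other leukaemias. Its summed level over 20 myeloid markers was 489600, within the range of 316600 to 1083000 of the other 7 libraries. Mpo was at 157200 in replicate 3 and Elane at 34720, both within the range of the others. Cebpe, a factor of granulocyte maturation, was highest there at 2592, as was Fcnb, a ficolin of granules, at 1669. Replicate 3 was lowest in 5 of the 20, against 13.8% of all tested genes. Among them were Itgam, an integrin of mature myeloid cells, at 4275, and Csf1r, the receptor for macrophage growth factor, at 7114. The T lineage sum was 735.7 in replicate 3 and 1159 to 2970 in the others, and the NK sum was 682.4 against 545.2 to 3606. Of the 12 NK genes 7 were lowest in replicate 3, against the same 13.8% of all tested genes. Plasmacytoid dendritic markers summed to 23940, against 23010 to 71460, with Siglech at 185.2 and a range of 7.39 to 271.4 elsewhere. Plasma cell genes, without Mzb1, summed to 11230, against 9482 to 16290. Erythroid genes summed to 43390, against 978.1 to 183400, where Car1, a carbonic anhydrase of red cell precursors, was at 23900 in replicate 3. Of the defining markers listed, none was at 0 in replicate 3, but some were at or under the value of 3 reads. Examples are the plasma cell gene Tnfrsf17 and the plasmacytoid dendritic gene Klk1, both at 1.97, and the T lineage gene Trat1 at 3.91. The part of these cell types in the B lineage values was not tested.

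The comparison of the genotypes asks whether B lineage genes differ between loss of 1 copy of the 11B3 region beside loss of Trp53, and loss of Trp53 by itself. No member passed the test in either direction: of 28 tested, 0 were higher and 0 lower with limma after Benjamini-Hochberg adjustment over all genes, where 0.0136% of all tested genes were called. At an unadjusted limma p under 0.05, 3 members were higher in the 11B3-deleted leukaemias (Btla, Irf4 and Cd72), or 3 of 28 against 1.18% of all tested genes in that direction, and none was lower. The mean log2 value was higher in 25 of the 28, against 51.6% of all tested genes. The median log2 difference of the tested members was 1.4, against 0.012 over all tested genes, and it was 1.98 for the early genes, 1.54 for the transcription factors, 1.15 for the receptor and signalling genes and 0.9 for the mature genes. These figures include 11B3-deleted replicate 3, which was singled out for being high in such genes, so they are not a test. Without that library the median of the 27 members then tested was 0.34, and 20 had a higher mean log2 value. The share and median over all genes were not taken for that fit, so the 20 and the 0.34 have nothing to be read against.

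Of single members, the intervals were wide. Igll1 averaged 2404 ± 4656 in 11B3-deleted leukaemias (SD, n = 4), and 81.3 ± 92.5 in p53-loss-only leukaemias (SD, n = 4). The log2 difference was 2.45 (SE 2.31, 95% interval -2.76 to 7.67, limma adjusted p = 0.996), which became 0.38 without replicate 3. For Vpreb1 the difference was 2.26 (SE 1.9, 95% interval -2.04 to 6.57) and 0.22 without replicate 3. Cd79a (1.62, SE 1.52), Cd79b (0.94, SE 1.37), Vpreb3 (1.98, SE 1.92) and Bach2 (0.42, SE 0.66) had a lower mean log2 value in the 11B3-deleted group once replicate 3 was left out, with differences of -0.11, -0.4, -0.11 and -0.09. For Igll1 and Vpreb1 the SD within the 11B3-deleted group exceeded the difference between the group means.

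Irf4 was the 1 member of 28 whose groups did not overlap, against 0.913% of all tested genes that were higher without overlap and 2.15% in either direction. It averaged 1500 ± 2119 in 11B3-deleted leukaemias (SD, n = 4), and 104.7 ± 22.3 in p53-loss-only leukaemias (SD, n = 4). The log2 difference was 2.53 (SE 0.99, 95% interval 0.28 to 4.77, limma adjusted p = 0.996). The gap between the groups was narrow, from 134.0 to 157.2, and 2 libraries carried the mean. Without 11B3-deleted replicate 2 the difference was 1.54. DESeq2 on the recovered reads called Irf4 (log2 difference 3.86, DESeq2 adjusted p = 0.00636), the 1 member it called, where 0.395% of all tested genes were called. edgeR on the same reads called 0 members, against 0.00681% of all tested genes, and gave 14 of 28 an unadjusted p under 0.05, against 4.2% of all tested genes. That fit holds 11B3-deleted replicate 3, which was singled out for its high B genes, and was not repeated without it. The 14 are therefore a description and not a test of the genotypes. Btla averaged 1007 ± 389.3 in 11B3-deleted leukaemias (SD, n = 4), and 418.8 ± 346.8 in p53-loss-only leukaemias (SD, n = 4). The log2 difference was 1.49 (SE 0.5, 95% interval 0.37 to 2.61, limma adjusted p = 0.996), and the Btla groups overlapped at 688.3 to 934.0. Cd72 averaged 1033 ± 1458 in 11B3-deleted leukaemias (SD, n = 4), and 91.8 ± 69.5 in p53-loss-only leukaemias (SD, n = 4). The log2 difference was 2.49 (SE 1.07, 95% interval 0.07 to 4.92, limma adjusted p = 0.996), which became 1.51 without 11B3-deleted replicate 2. The mean of the log2 values was lower in the 11B3-deleted group for 3 members: Pou2f2 (-0.41, SE 0.24), Bank1 (-0.47, SE 0.96) and Ighm (-0.06, SE 0.6). Without 11B3-deleted replicate 3 these differences were -0.49 (SE 0.26), -1.07 (SE 0.94) and -0.75 (SE 0.25). The Ighm groups then did not overlap, at 6309 to 7055 against 8074 to 14950. That held for 2 of 28 members, against 4.03% of all tested genes, and no member passed the threshold in that fit.

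**Figure D5:**
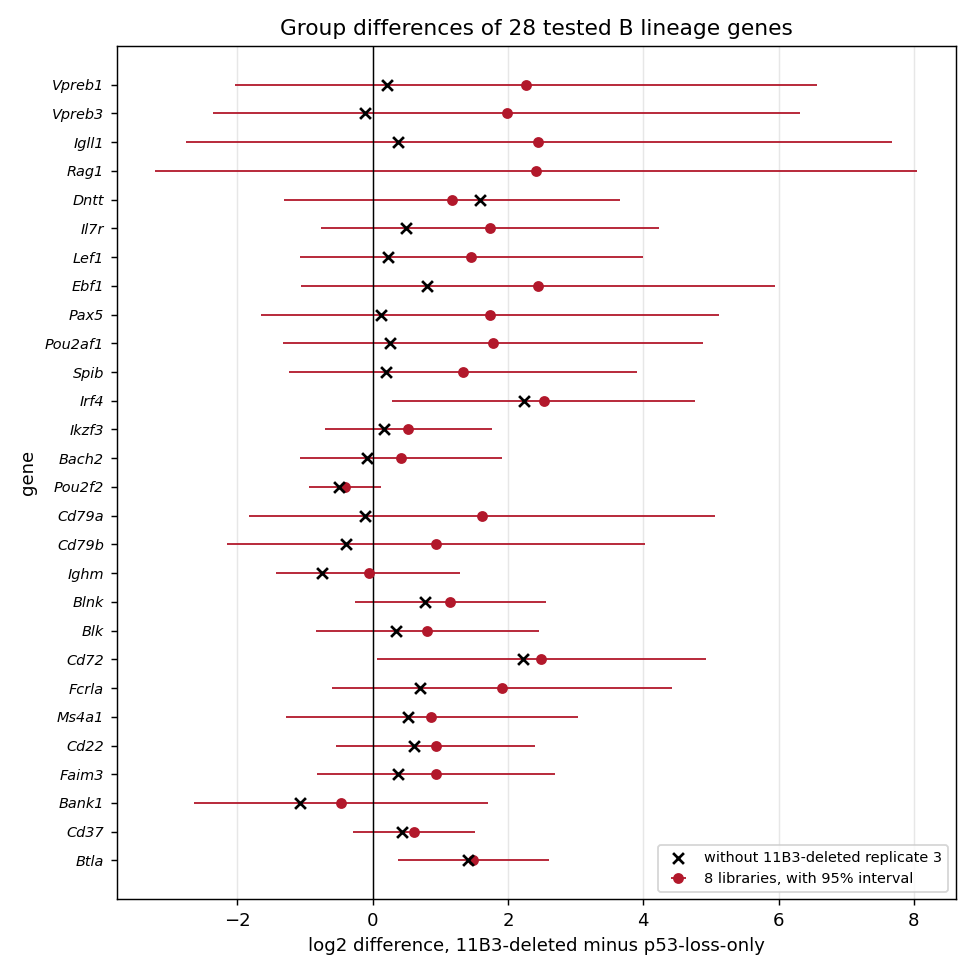
Log2 difference between 11B3-deleted and p53-loss-only libraries (x axis) for each of the 28 tested genes (y axis); red points with 95% intervals from limma use all 8 libraries and black crosses leave out 11B3-deleted replicate 3 (Rag1 was then not tested). The intervals exclude 0 before adjustment for Irf4, Cd72 and Btla, and the crosses lie nearer to 0 than the points for most early genes.

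Lists of other cells and of other B lineage genes gave no call either. With limma over all genes, 0 of 44 tested other B lineage genes, 0 of 9 immunoglobulin genes, 0 of 20 T lineage genes and 0 of 20 myeloid genes passed in either direction. At an unadjusted limma p under 0.05 these lists held 1, 0, 0 and 1 genes, against 3.56% of all tested genes. No plasma cell (8 tested, Mzb1 not among them), NK (12), plasmacytoid dendritic (7) or erythroid gene (12) passed in either direction. None of these had an unadjusted limma p under 0.05. The median log2 difference was 0.13 for the other B lineage genes, 0.48 for the immunoglobulin genes, -0.27 for the T lineage, -0.23 for the myeloid and 1.55 for the erythroid list, where all 12 genes had a higher mean log2 value and 11B3-deleted replicate 1 held the highest sum.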

How the data were processed

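Total RNA of 8 leukaemia libraries, 4 per genotype, was used as deposited. Per the submitters' processing notes, STAR, HTSeq, DESeq and build mm9 were used, without roles or versions. Each deposited signal value equals reads over a library size factor, plus 1, as the values show: less the 1, 100% were whole multiples of the value of 1 read within a tolerance of 0.02. Groups came from the sample titles. The planned edgeR test needs counts, so limma (trend, log2 of the deposited value, whose 1 is the pseudocount) was used on the 14679 genes that reached 10 in 4 or more libraries, two-sided, adjusted over all of them at 0.05. A fold change on this scale is understated for low genes. edgeR, run on the recovered reads, called 1 gene and DESeq2 58. The software was limma 3.58.1, DESeq2 1.42.0 and edgeR 4.0.16 under R 4.3.3; the fits were tested on simulated data.

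The members, lists and rule for named genes were chosen with earlier results of these data known. All members are named; of other lists, up to 6 genes with the highest ratio of top library to median, and of genes standing apart in replicate 3 up to 15 by ratio, without predicted genes. A gene that this rule names is not reported here. Each member's identifier had a current symbol in GENCODE M21 (GRCm38), 29 of 30 the same. Exon lengths are from that annotation, upstream sequences from RefSeq on GRCm38.p6, and no coordinates of mm9 are given. Strand use in counting is unknown here, and Cd37, Cd72 and Vpreb1 overlap coding genes on the other strand in GRCm38, so their reads may be shared. All pairs of libraries differed beyond counting noise (smallest chi-square over degrees of freedom 92.4).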

Additional observations from a re-analysis of the deposited data

Results flagged for a closer look

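In 60 cases of a member in a group of 4, the highest or lowest library lay apart from the other 3 on the log2 scale by Dixon's criterion in 6. Chance flags about 1 in 20, but 6 of 60 cannot be read against that rate, since 3 lie in a library named for standing apart and 2 rest on groups otherwise without reads. In 11B3-deleted replicate 3 these were Il7r at 5271 against 124.0 to 235.3 in the other 3, Fcrla at 1281 against 36.5 to 64.0, and Ighm at 45810 against 6309 to 7055. In p53-loss-only replicate 2, Ms4a1 was at 115 against 11.7 to 14.2. In p53-loss-only replicate 1, Vpreb2 was at 9.74 and Rag2 at 6.83, while the other 3 libraries of that group had no read of either. The criterion sets the gap against the whole range, so that genes whose other 3 libraries also spread widely, such as Igll1 and Rag1, did not meet it in replicate 3.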

How the results depend on the processing

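The count of members past the threshold was 0 in each direction under every alternative but DESeq2, which called 1 (Irf4). DESeq2 gave no adjusted p for 14 of 28, all but Dntt highest in 11B3-deleted replicate 3. edgeR called none, with 14 members at an unadjusted p under 0.05, where 4.2% of all genes had one. It was not run without 11B3-deleted replicate 3, so the 14 are a description only. The replicate numbers are not said to pair libraries, and same-numbered libraries did not vary together (correlations of -0.414 to -0.03); with the replicate block 0 members and 0 of all genes passed. Members whose groups did not overlap numbered 1 to 3 with a library left out: 2 of 28 without 11B3-deleted replicate 2 or 3 (8.55% and 4.03% of all tested genes), and 3 without p53-loss-only replicate 2 (5.33%). This alternative was chosen after seeing the data. Genes standing apart in replicate 3 numbered 51 at a ratio of 4 and 21 at 16, and 22 members were highest there also with TMM factors.

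The group difference of the early library medians, 2.26, was 0.33 without 11B3-deleted replicate 3 and 2.97 without replicate 1; that of the mature medians, 0.77, ranged from 0.29 to 1.36. It was 0.3 to 1.64 for the transcription factors (1.1) and 0.53 to 1.64 for the receptor genes (1.15), lowest without 11B3-deleted replicate 3 in each. Of 214 member values under other alternatives, 209 kept direction and, where an adjusted p was given, side. DESeq2 gave none for 14 members, which were judged by direction alone. Size was not judged, and the Vpreb1 difference of 2.26 was 5.68 with edgeR. Ighm, at -0.06, was 0.49 with edgeR, 0.49 with DESeq2 and 0.3 with voom and sample weights, and Bank1, at -0.47, was 0.46 with voom; the cause was not tested. With each library left out, log2 differences ranged from -0.11 to 3.3 for Vpreb3, -0.09 to 1.02 for Bach2, -0.11 to 2.49 for Cd79a, -0.4 to 1.58 for Cd79b, -0.75 to 0.2 for Ighm and -1.07 to 0.09 for Bank1. Depth limits values under that of 3 reads, such as Rag2 in 5 libraries.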
